A study of Mus musculus with 6 samples.

Results

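The immediate early response genes are the transcription factors and feedback regulators that cells switch on within minutes of a growth factor, cytokine or stress signal. Their levels were read here from RNA sequencing of small intestinal adenomas of ApcMin mice. The 10 members Fos, Fosb, Jun, Junb, Egr1, Egr2, Atf3, Ier2, Nr4a1 and Dusp1 were taken by symbol, not by their values, from the 46078 genes of the count tables, and each matched 1 Ensembl gene. One group of 3 mice was miR-34a/b/c-/-;ApcMin/+ (called knockout) and the other group of 3 mice was miR-34a/b/c+/+;ApcMin/+ (called wild-type). All 6 mice were 18 weeks old, of C57BL6/SV129 background, and heterozygous for ApcMin, a mutation of the tumor suppressor gene Apc that causes multiple adenomas in the intestine. The tumors were frozen after isolation, and each library held RNA of 3 pooled tumors from 1 animal, which makes the animal the unit of replication. The question was how adenomas of mice without the miR-34 family compare with adenomas of mice that keep it.

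Signals that reach the MAP kinases lead to phosphorylation of factors already bound at these promoters, chiefly SRF with its ELK partners and CREB, so the genes are transcribed without new protein synthesis. FOS and JUN family proteins pair to form AP-1, which in intestinal tumors acts downstream of growth factor and stress signals. The messages are short-lived, and DUSP1, a phosphatase of the MAP kinases, helps to end the signal. Stress and tissue handling are also known to induce these genes in many tissues.

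Mir34a, Mir34b and Mir34c had 0 counts in all 6 libraries, wild-type mice included, and so give no check of genotype. Library totals ranged from 26375035 to 38354355 counts in the knockout mice and from 31340618 to 37396224 counts in the wild-type mice. All 10 members passed the filter on low counts that left 17254 genes, and the lowest member count in any library was 22, for Egr2. The epithelial markers Epcam, Krt8, Krt18, Krt20, Cdh1, Vil1, Cdx2 and Cldn7 were present in every library, with a summed level between 10176 and 12776 CPM (counts scaled to a common library size with TMM factors) in the knockout and between 10627 and 14537 CPM in the wild-type libraries. Counts of Xist and 4 Y-linked genes placed 1 male in each group, knockout replicate 2 and wild-type replicate 3. In such bulk samples, fewer cells of a type and less RNA per cell cannot be told apart.

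The microRNAs missing in the knockout mice share a seed, the stretch of bases 2 to 8 that pairs with target messages, which is in capitals in the mature sequences shown here (RefSeq, GRCm38.p6; miR-34a-5p at chr4:150068473-150068494 on the plus strand, miR-34b-5p at chr9:51103610-51103632 on the minus strand). They are shown because their presence is what differs between the groups. The sequence of miR-34c-5p was not at hand and is not shown, so the seed was read from miR-34a-5p and miR-34b-5p alone.
miR-34a-5p: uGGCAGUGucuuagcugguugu
miR-34b-5p: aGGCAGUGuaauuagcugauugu
A match to this seed, CACTGCC, occurred in the longest annotated 3′ UTR of 3 of the 10 members, Fos, Fosb and Egr2, and in 2458 of 14685 tested genes with a 3′ UTR (16.7%). The matches are in capitals within their surrounding bases (GENCODE M21 transcripts) and begin at base 40 of 815 in the UTR of Fos, base 2125 of 2302 in that of Fosb and base 1057 of 1200 in that of Egr2.
Fos: atccagacgtgcCACTGCCcgagc
Fosb: agaagggcctgcCACTGCCgacca
Egr2: gtgcttcaatgtCACTGCCgctga
A match is a description of these letters and not evidence of a target. Among the 3 genes that held one, the difference between knockout and wild-type tumors was positive for Fosb and Egr2 and negative for Fos, and no difference passed the test described below.

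No immediate early gene passed the test for a difference between the genotypes. Of the 10 members 0 passed at an adjusted p below 0.05 in edgeR's quasi-likelihood test, where 16 of 17254 genes did (0.0927%), and 0 had an unadjusted p below 0.05, where 1010 genes did (5.85%). DESeq2 called 0 members and 0.638% of all genes, and limma-voom called 0 members and 0.122% of all genes. The lowest adjusted p of a member was 0.813 in edgeR, for Egr1 and Egr2. The median log2 fold change of the members was 0.26, with 6 higher and 4 lower in knockout tumors. Over all genes tested the median was 0.0073, and 8816 of 17254 genes were higher. For no member were the 3 knockout libraries all above or all below the 3 wild-type libraries, as they were for 11.2% of all genes. The values of each gene follow, by role.

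**Figure D1:**
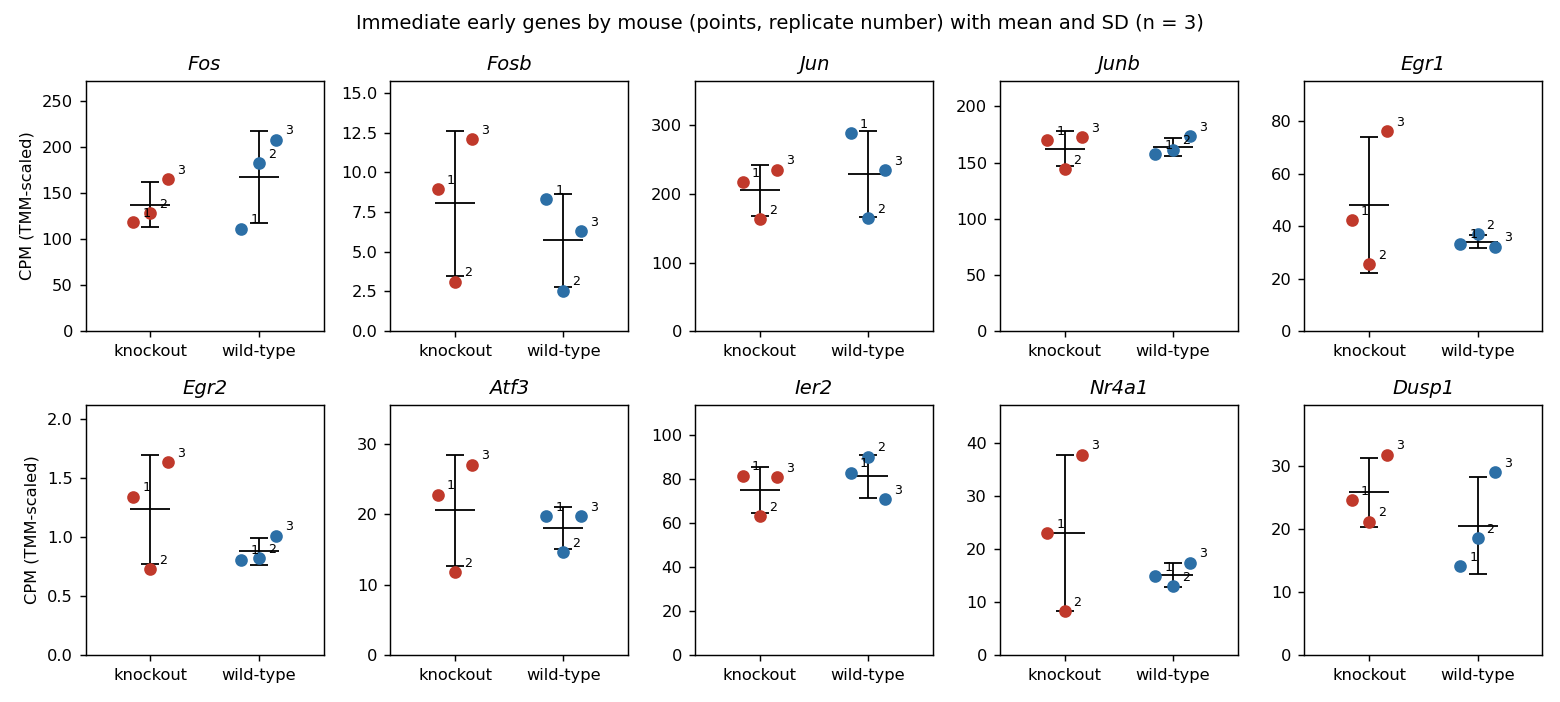
TMM-scaled CPM (vertical axis, from 0) of each immediate early gene in the 3 knockout (red) and 3 wild-type (blue) libraries, 1 point per mouse with its replicate number, with the mean and SD of each group as black bars. Nr4a1, Egr1 and Egr2 spread widely in the knockout mice (Nr4a1 from 8.29 to 37.8 CPM) and little in the wild-type mice, while Junb was nearly level in all 6.

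Among the AP-1 subunits of the FOS family, Fos (ENSMUSG00000021250, mm10 chromosome 12, 85473890 to 85477273), the partner that joins JUN proteins in the classical AP-1 dimer, had 119, 128 and 165 CPM in knockout replicates 1, 2 and 3, against 111, 183 and 208 CPM in wild-type replicates 1, 2 and 3. The groups overlapped, since wild-type replicate 1 lay below all 3 knockout libraries and the other two wild-type libraries lay above them. Knockout tumors averaged 137 ± 24.5 CPM and wild-type tumors 167 ± 50.2 CPM (SD, n = 3 each). The log2 fold change was -0.29, with a 95% interval from -0.88 to 0.31 (adjusted p = 0.823, edgeR). In the other 9 members replicate 2 was lowest of the knockout mice, but in Fos it was replicate 1. Over all genes tested, replicate 2 was lowest of the knockout mice for 7288 of 17254.

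Fosb (ENSMUSG00000003545, chromosome 7, 19302721 to 19310045), a second FOS family subunit known for strong induction from a low basal level, had 8.95, 3.10 and 12.1 CPM in the knockout libraries, against 8.29, 2.55 and 6.30 CPM in the wild-type libraries. In both groups replicate 2 was lowest by a wide margin, and the highest library was 4.74 times the lowest, the widest range of any member. Its log2 fold change of 0.49 had an interval from -0.89 to 1.88 (adjusted p = 0.859, edgeR), also the widest of the 10, so neither a marked rise nor a marked fall can be told from none.

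The JUN family subunits were abundant, and of these Junb was the more even. Jun (ENSMUSG00000052684, chromosome 4, 95049034 to 95052222) had 217, 163 and 235 CPM in the knockout libraries, against 289, 164 and 235 CPM in the wild-type libraries. The lowest library of each group was its replicate 2, at almost the same level, while wild-type replicate 1 was highest, 1.77 times the lowest of the 6. The log2 fold change was -0.16 (95% interval -0.72 to 0.40, adjusted p = 0.886, edgeR). Junb (ENSMUSG00000052837, chromosome 8, 84976909 to 84978748), a JUN protein that can dampen JUN activity, had 170, 144 and 173 CPM in the knockout libraries, against 158, 161 and 173 CPM in the wild-type libraries. It was the steadiest member, with 1.20 times between its highest and lowest library, and its interval from -0.31 to 0.27 around a log2 fold change of -0.016 was the narrowest (adjusted p = 0.982, edgeR). With library size alone in place of TMM the change was 0.063. An antisense transcript, Junos, overlaps Jun on the opposite strand. Whether counting used strand is not known here. Junos held 348 counts over the 6 libraries and Jun held 43799, which does not measure what the overlap did to the Jun count.

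Atf3 (ENSMUSG00000026628, chromosome 1, 191170296 to 191218039), a stress-induced partner of the AP-1 family that often represses its targets, had 22.8, 11.7 and 27.1 CPM in the knockout libraries. In the wild-type libraries it had 19.8, 14.6 and 19.8 CPM. The wild-type values thus lay inside the knockout range, whose top was 2.31 times its bottom, and the log2 fold change of 0.19 had an interval from -0.55 to 0.92 (adjusted p = 0.898, edgeR).

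Both EGR zinc finger factors, which bind GC-rich sites in the promoters of growth genes, had their widest values in the knockout group. Egr1 (ENSMUSG00000038418, chromosome 18, 34859823 to 34864984) had 42.3, 25.7 and 76.3 CPM in the knockout libraries, against 33.4, 36.9 and 32.2 CPM in the wild-type libraries. Knockout replicate 3 was thus 2.97 times knockout replicate 2, while the highest wild-type library was 1.15 times the lowest. The log2 fold change was 0.50 with a 95% interval from -0.36 to 1.35 (adjusted p = 0.813, edgeR), and without knockout replicate 3 it was -0.019. Egr2 (ENSMUSG00000037868, chromosome 10, 67535475 to 67542188) was the rarest member, with 1.34, 0.726 and 1.63 CPM in the knockout libraries and 0.808, 0.818 and 1.01 CPM in the wild-type libraries. Knockout replicates 1 and 3 lay above all wild-type libraries and knockout replicate 2 below them, and the log2 fold change was 0.49 (95% interval -0.39 to 1.37, adjusted p = 0.813, edgeR).

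Nr4a1 (ENSMUSG00000023034, chromosome 15, 101266846 to 101274792), an orphan nuclear receptor whose activity is set largely by its own transcription, showed the same order more strongly. It had 23.0, 8.29 and 37.8 CPM in the knockout libraries, against 14.8, 13.0 and 17.4 CPM in the wild-type libraries. Within the knockout group the highest library was 4.56 times the lowest, where the same ratio was 1.34 in the wild-type group. It had the largest log2 fold change of the 10 members, 0.61, with a 95% interval from -0.54 to 1.76 (adjusted p = 0.815, edgeR). The value rested on single mice, since it was 1.01 without knockout replicate 2 and 0.039 without knockout replicate 3.

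Ier2 (ENSMUSG00000053560, chromosome 8, 84661331 to 84662852), a small nuclear protein gene of the serum response, had 81.4, 63.0 and 80.6 CPM in the knockout libraries, against 82.7, 90.1 and 70.8 CPM in the wild-type libraries. Again knockout replicate 2 was lowest of all, but the spread was small in both groups and the log2 fold change was -0.11 (95% interval -0.47 to 0.24, adjusted p = 0.870, edgeR). Dusp1 (ENSMUSG00000024190, chromosome 17, 26505590 to 26508519), the feedback phosphatase, had 24.5, 21.1 and 31.7 CPM in the knockout libraries, against 14.1, 18.5 and 29.0 CPM in the wild-type libraries. Here the knockout mice spread less than the wild-type mice, with 1.50 times between highest and lowest in the knockout group and 2.06 times in the wild-type group, and 2 of the 3 wild-type libraries lay below every knockout library. The log2 fold change was 0.33 (95% interval -0.35 to 1.01, adjusted p = 0.822, edgeR).

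**Figure D2:**
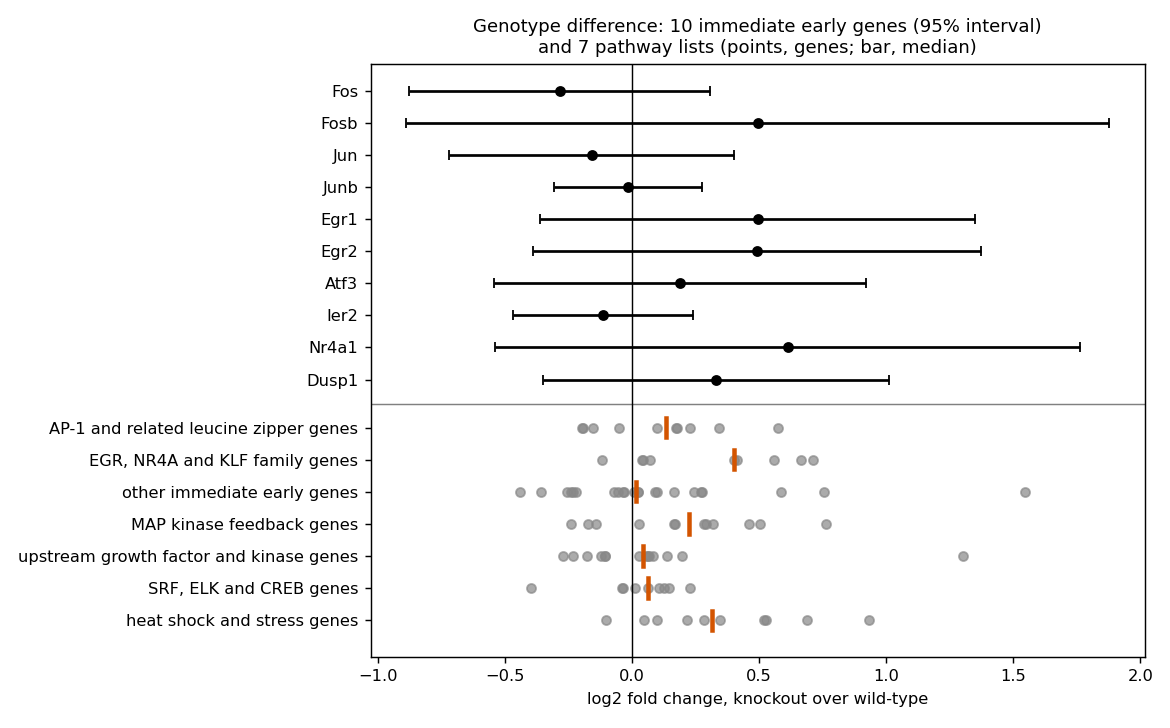
Log2 fold change of knockout over wild-type tumors (horizontal axis) for the 10 immediate early genes with 95% intervals in the upper part, and for the genes of 7 related pathway lists (grey points, with the list median as an orange bar) in the lower part. Every interval of the 10 genes includes 0, and the list medians lie between 0.016 and 0.40.

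Levels can be compared between genes only per length, here as CPM per kilobase of exon averaged over the 6 libraries. Junb led with 90.2 ± 6.22 (SD, n = 6), followed by Jun with 68.1 ± 15.0, Fos with 64.8 ± 16.6 and Ier2 with 51.3 ± 6.33. The ranges of neighbours in this order overlapped, but the lowest Junb library (79.7) lay above the highest Ier2 library (59.2). The lowest Ier2 library (41.4) lay well above the highest library of the next gene, Egr1 (17.0). Egr1, Atf3, Dusp1 and Nr4a1 formed a middle tier with means from 5.77 to 9.17, again with overlapping neighbours. Fosb with 1.11 ± 0.588 and Egr2 with 0.311 ± 0.105 were lowest, and their ranges overlapped too.

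The members also differed in their spread between mice. The SD of log2 CPM among the knockout mice was 1.11 for Nr4a1, 1.02 for Fosb, 0.79 for Egr1, 0.64 for Atf3 and 0.58 for Egr2, and between 0.14 and 0.30 for Junb, Ier2, Fos, Jun and Dusp1. Among the wild-type mice it was 0.88 for Fosb and at most 0.52 for the other members. The median over the members was 0.44 in knockout and 0.23 in wild-type mice, where the median over all genes tested was 0.27 in knockout and 0.22 in wild-type mice. The knockout SD was the larger in 7 of the 10 members, against 59.9% of all genes, and the difference in spread was not tested.

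Knockout replicates 2 and 3 were at the ends of this spread. Knockout replicate 2 was the lowest of the 6 libraries for 7 members (Jun, Junb, Egr1, Egr2, Atf3, Ier2 and Nr4a1), where it was lowest for 20.2% of all genes. Knockout replicate 3 was the highest of the 6 for 6 members (Fosb, Egr1, Egr2, Atf3, Nr4a1 and Dusp1), against 19.4% of all genes. The members' score, the mean over the 10 genes of log2 CPM centred on each gene's mean, was 0.18, -0.48 and 0.53 in knockout replicates 1, 2 and 3, against -0.074, -0.24 and 0.089 in wild-type replicates 1, 2 and 3. The knockout mice thus bracketed all 3 wild-type mice, with 1 below and 2 above. The lowest knockout mouse was also the male of its group, while the male of the wild-type group was the highest of its own, and the 2 female knockout mice (0.18 and 0.53) lay above the 2 female wild-type mice (-0.074 and -0.24). Without knockout replicate 2 the members' median log2 fold change was 0.46, and Nr4a1, Egr1 and Atf3 then had unadjusted p-values of 0.00324, 0.0138 and 0.0376 but adjusted p-values of 0.132, 0.190 and 0.251 (edgeR). Without knockout replicate 3 that median was -0.045, and without wild-type replicate 2 it was 0.099. With sex as a term, added after the data were seen, it was 0.22 and again 0 members passed.

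**Figure D3:**
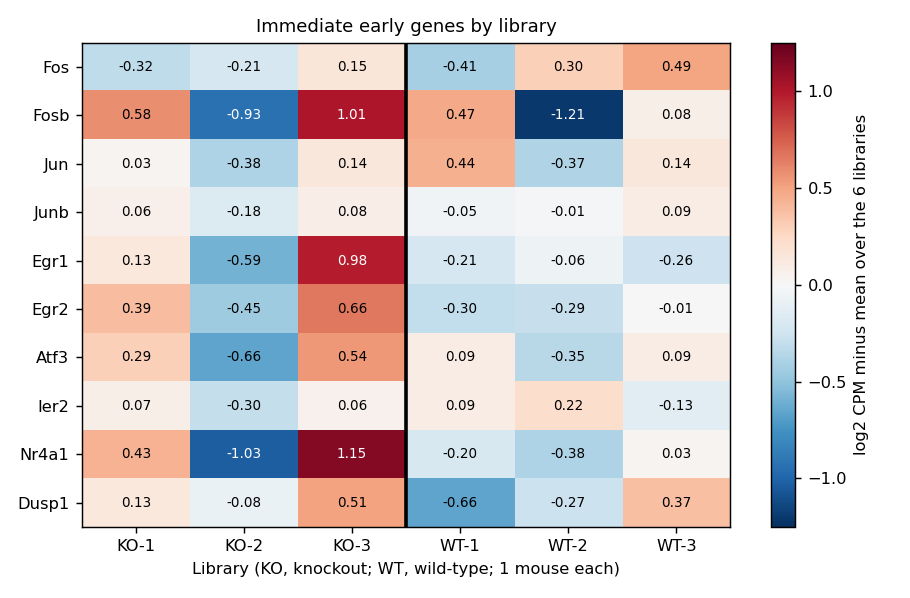
Log2 CPM of each immediate early gene (rows) in each library (columns, knockout left of the black line and wild-type right of it) after subtracting the gene's mean over the 6 libraries. The column of knockout replicate 2 is below 0 in all 10 rows and that of knockout replicate 3 above 0 in all 10, while Fos and Dusp1 also vary within the wild-type group, both lowest in replicate 1.

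Promoters of the members were searched for known motifs, with no choice by how the genes varied. RefSeq promoters (GRCm38.p6, 250 bases before to 50 after a start site) were searched for 8 of the 10 genes. Egr1 and Ier2 were not searched. The 8 genes had 12 windows, 5 of them for Egr2, and a gene counts as holding a motif if any of its windows does, here as among the 27025 genes of the table. The cyclic AMP response element TGACGTCA, the site of CREB, was found in 1 of these 8 genes, Dusp1, and in 2.03% of all genes (1.79% of 32851 windows of the same length). Its core TGACG, which also lies inside the full element, was found in 7 of the 8 genes and in 23.0% of all genes (20.8% of windows). The CArG box, the SRF site, was found among the 8 in Egr2, in 4 of its 5 windows, and in 1.81% of all genes (1.63% of windows). The Egr2 windows that start at 67537619, 67537620 and 67537680 overlap and hold the same box, CCATATATGG. They are thus not separate occurrences. The EGR site GCGNGGGCG was found in Fosb and Nr4a1 and in 6.27% of all genes (5.55% of windows), and the AP-1 site TGANTCA in 0 of the 8 and in 8.97% of all genes (7.81% of windows). Both strands were searched.

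The promoters of Nr4a1, Egr2, Fos and Dusp1 are shown because Nr4a1 varied most among the knockout mice, Egr2 shared its order at the lowest level, Fos departed from it, and Dusp1 holds the full element. Capitals mark CArG boxes, TGACG and its full form, EGR sites and the letters TATAAA, the last on the gene's own strand only.
Nr4a1, chr15:101266596-101266895, plus strand: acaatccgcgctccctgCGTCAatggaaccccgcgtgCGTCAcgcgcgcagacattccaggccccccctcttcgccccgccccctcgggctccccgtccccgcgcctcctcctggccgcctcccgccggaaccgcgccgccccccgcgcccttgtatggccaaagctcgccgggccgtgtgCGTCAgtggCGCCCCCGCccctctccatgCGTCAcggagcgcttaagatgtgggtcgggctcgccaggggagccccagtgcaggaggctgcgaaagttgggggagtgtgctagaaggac
Egr2, chr10:67537619-67537918, plus strand: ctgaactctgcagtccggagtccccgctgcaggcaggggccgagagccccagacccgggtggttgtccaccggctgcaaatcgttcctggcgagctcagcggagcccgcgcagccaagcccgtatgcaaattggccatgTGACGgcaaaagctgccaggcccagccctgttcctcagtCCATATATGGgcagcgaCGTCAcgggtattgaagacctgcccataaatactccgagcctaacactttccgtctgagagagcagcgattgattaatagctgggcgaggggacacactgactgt
Fos, chr12:85473640-85473939, plus strand: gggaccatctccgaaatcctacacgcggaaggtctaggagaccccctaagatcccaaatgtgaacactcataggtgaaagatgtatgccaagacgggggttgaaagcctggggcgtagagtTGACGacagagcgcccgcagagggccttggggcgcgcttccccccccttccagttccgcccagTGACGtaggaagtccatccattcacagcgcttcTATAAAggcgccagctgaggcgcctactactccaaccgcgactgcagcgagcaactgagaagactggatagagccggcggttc
Dusp1, chr17:26508423-26508722, minus strand: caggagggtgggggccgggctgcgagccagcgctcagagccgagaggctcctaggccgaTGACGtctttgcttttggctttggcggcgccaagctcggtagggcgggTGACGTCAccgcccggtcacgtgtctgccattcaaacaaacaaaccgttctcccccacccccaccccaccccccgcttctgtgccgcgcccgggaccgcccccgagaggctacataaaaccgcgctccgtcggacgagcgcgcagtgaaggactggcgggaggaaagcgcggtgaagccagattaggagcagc
Nr4a1 held 4 cores, at -233, -213, -69 and -40 from the start site, all read on the opposite strand. Fos held 2 cores, at -129 and -66, on its own strand. Dusp1 held the full element at -143. The Egr2 window shown is 1 of 5, chosen because it holds both a CArG box, which begins at -72, and cores. It lies at a start site inside the annotated gene, and the window at the first start of the gene (chr10:67535249-67535548) held neither. Cores lay in 7 of the 8 genes searched, steady and variable alike (Junb has 1 at -106 and Atf3 1 at -7), and Jun held none. With nearly all genes holding it, the presence of the core could not tell steady from variable members. Any part of these letters in the levels was not tested. Letters missing from this window may lie outside it.

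The rest of the pathway was read from lists of related genes. Of 87 genes in 7 lists 86 were tested, 0 passed in either direction (edgeR), and 5 had an unadjusted p below 0.05, namely Jdp2, Nab2, Ccn2, Ier5 and Dusp10, a share near the 5.85% of all genes. DESeq2 and limma-voom also called 0 of them. The median log2 fold change over the 86 genes was 0.086, with 58 higher and 28 lower in knockout tumors. Over all genes tested 8816 of 17254 were higher. Genes of a list were read in the same 6 mice, so counts of genes higher here and below are not replicates of a genotype difference. Full separation of knockout from wild-type libraries was seen in 5 of the 86, namely Jdp2, Nab2, Dusp10, Ier5 and Elk1. Among all 17254 genes tested it was seen in 1933 (11.2%), so such separation was not more common in the lists.

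For 10 other AP-1 and related leucine zipper genes the median was 0.13, and 0 passed. Jdp2, a repressor that binds AP-1 sites, had 4.83, 4.13 and 4.78 CPM in the knockout libraries, against 2.76, 3.02 and 3.44 CPM in the wild-type libraries. The groups did not overlap, yet the log2 fold change of 0.57 ± 0.23 (SE) did not pass (adjusted p = 0.793, edgeR). Jund, a JUN family gene kept at a steady level in most cells, had 194, 192 and 158 CPM in the knockout and 191, 204 and 211 CPM in the wild-type libraries.

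The EGR, NR4A and KLF families had the highest median of the 7 lists, 0.40, with 8 of 9 tested genes higher and 0 passing. Nab2, a corepressor that EGR factors induce and that restrains them, had 11.2, 7.56 and 11.1 CPM in the knockout libraries, all above the 5.78, 6.42 and 6.66 CPM of the wild-type libraries (log2 fold change 0.67 ± 0.22, adjusted p = 0.793, edgeR). The nuclear receptors related to Nr4a1 repeated its order among the knockout mice in part. Nr4a2 had 18.1, 7.83 and 16.5 CPM in the knockout and 9.41, 6.23 and 13.2 CPM in the wild-type libraries, and Nr4a3 had 3.35, 1.12 and 4.20 CPM in the knockout and 1.34, 1.70 and 2.27 CPM in the wild-type libraries. For both, knockout replicates 1 and 3 lay above every wild-type library and replicate 2 did not. Egr4 failed the filter, with 7, 0 and 10 counts in the knockout and 1, 0 and 2 counts in the wild-type libraries.

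Among 22 other immediate early genes the median was 0.016 and 0 passed. Ccn2, a matricellular protein gene induced by serum and by mechanical signals, had 34.1, 12.2 and 20.9 CPM in the knockout and 5.96, 3.84 and 13.2 CPM in the wild-type libraries (log2 fold change 1.55 ± 0.54, adjusted p = 0.793, edgeR). Knockout replicates 1 and 3 lay above the wild-type range and replicate 2 within it. Ier5, an immediate early gene related to Ier2, went the other way with no overlap, at 42.5, 43.5 and 46.6 CPM in the knockout and 50.2, 52.1 and 53.3 CPM in the wild-type libraries, a log2 fold change of -0.23 ± 0.098 that did not pass (adjusted p = 0.793, edgeR). Ccn1, the other matricellular gene of the list, had 40.5, 17.1 and 35.8 CPM in the knockout and 22.6, 12.9 and 19.8 CPM in the wild-type libraries. As for Nr4a2, knockout replicates 1 and 3 lay above the wild-type libraries and replicate 2 among them. Zfp36, whose product destabilizes messages with AU-rich ends, had 67.9, 87.4 and 74.4 CPM in the knockout and 78.3, 115 and 102 CPM in the wild-type libraries, with a log2 fold change of -0.36 ± 0.17 that did not pass either (adjusted p = 0.793 in edgeR).

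Of 12 MAP kinase feedback genes, the companions of Dusp1, 9 were higher in knockout tumors, the median was 0.23 and 0 passed. Dusp10, a phosphatase of the stress kinases, had 12.3, 8.78 and 11.0 CPM in the knockout and 7.64, 6.54 and 8.40 CPM in the wild-type libraries, without overlap (log2 fold change 0.50 ± 0.21, adjusted p = 0.793, edgeR). Spry4, an inhibitor of receptor tyrosine kinase signaling, had 29.3, 11.5 and 37.4 CPM in the knockout libraries and 16.1, 14.7 and 15.3 CPM in the wild-type libraries. This is the Egr1 pattern of wide knockout and narrow wild-type values. Dusp6, the ERK phosphatase, had 159, 122 and 172 CPM in the knockout and 130, 101 and 134 CPM in the wild-type libraries.

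Upstream, 14 growth factor and kinase genes had a median of 0.043 and 9 SRF, ELK and CREB genes one of 0.061, with 0 passing in each. Ereg, a ligand of the EGF receptor, was the exception in size, with 87.2, 24.8 and 110 CPM in the knockout and 17.1, 19.7 and 53.0 CPM in the wild-type libraries (log2 fold change 1.30 ± 0.63, adjusted p = 0.793, edgeR). Knockout replicate 2 again stayed within the wild-type range. The kinase gene Mapk3 had 287, 362 and 265 CPM in the knockout and 361, 412 and 329 CPM in the wild-type libraries. Elk1, the SRF partner that MAP kinases phosphorylate, had 5.92, 7.30 and 5.74 CPM in the knockout and 8.26, 8.87 and 7.81 CPM in the wild-type libraries. Its groups did not overlap, but the log2 fold change of -0.40 ± 0.20 did not pass (adjusted p = 0.793, edgeR).

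Of 10 heat shock and stress genes 9 were higher in knockout tumors, at a median of 0.31, and 0 passed. They were ordered in part otherwise than the members, being highest in knockout replicate 1 for 8 of the 10 and lowest in wild-type replicate 2 for 7. Over all genes tested these counts were 3483 and 3563 of 17254. Among the knockout mice alone, replicate 2 was lowest for 7 of the 10, as it was for 9 of the members. Hsph1, a chaperone gene, had 121, 83.8 and 93.9 CPM in the knockout and 73.3, 49.8 and 83.9 CPM in the wild-type libraries.

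**Figure D4:**
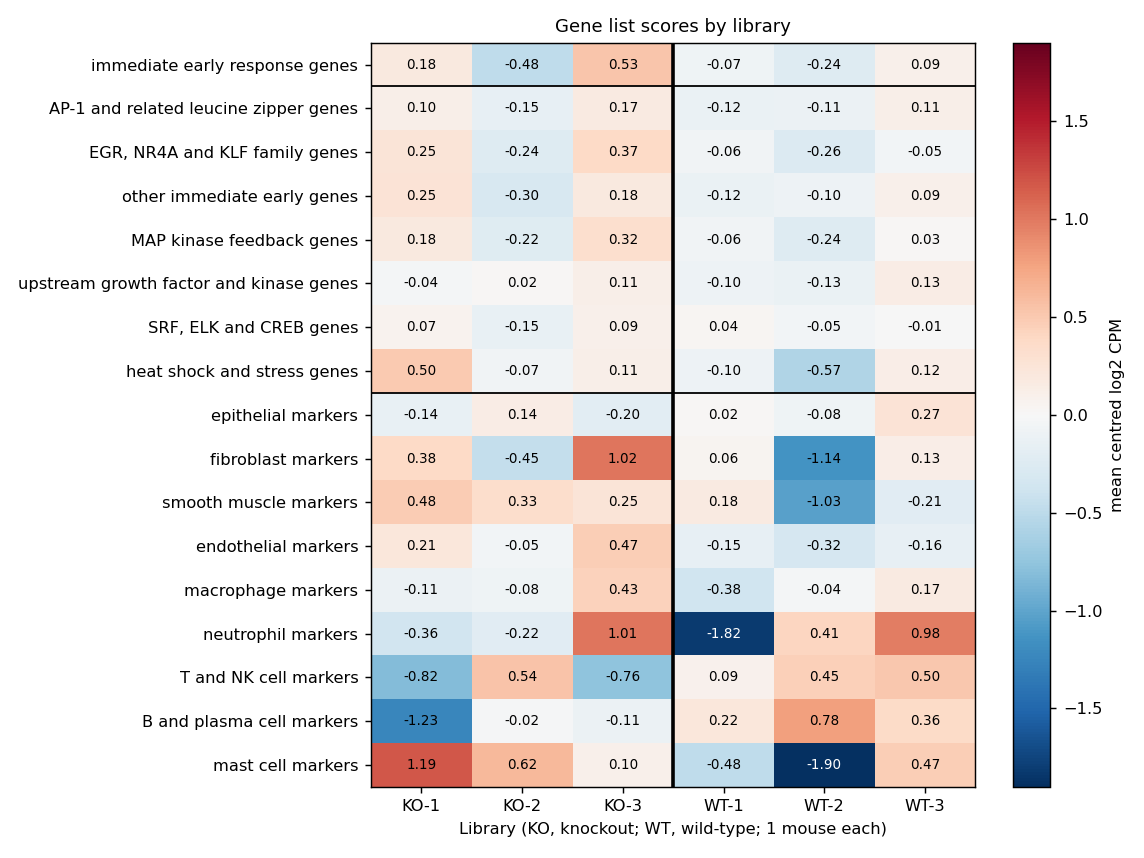
Mean centred log2 CPM of each gene list (rows) in each library (columns, knockout left of the vertical line), with the 10 immediate early genes on top, the 7 pathway lists below them and the 9 cell type marker lists at the bottom. Knockout replicate 2 is lowest of the 6 for the immediate early genes (-0.48), whereas wild-type replicate 2 is lowest for fibroblast (-1.14), smooth muscle (-1.03), endothelial (-0.32) and mast cell markers (-1.90).

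Knockout replicate 3, the library highest in immediate early genes, was also highest in fibroblast, endothelial and macrophage markers. It was the highest of the knockout libraries in neutrophil markers, but the lowest of them in smooth muscle and mast cell markers. The summed level of 8 fibroblast markers was 1366, 676 and 2518 CPM in the knockout libraries, against 969, 404 and 1257 CPM in the wild-type libraries, with 0 markers at a count of 0. Within each group, knockout and wild-type, the order of the libraries in this sum was that of the members' score. Across all 6 libraries the orders differed, since wild-type replicate 2 was lowest in fibroblast markers and knockout replicate 2 in the score. Endothelial markers summed to 391, 333 and 464 CPM in the knockout and 315, 241 and 263 CPM in the wild-type libraries, macrophage markers to 134, 139 and 197 CPM in the knockout and 116, 154 and 171 CPM in the wild-type libraries, and again 0 of their markers were at a count of 0. T and NK cell markers were highest in knockout replicate 2 among the knockout mice, at 14.3, 38.7 and 15.8 CPM, against 28.5, 36.9 and 37.2 CPM in the wild-type mice. Smooth muscle markers summed to 843, 822 and 772 CPM in the knockout and 741, 385 and 590 CPM in the wild-type libraries. Mast cell markers summed to 673, 471 and 245 CPM in the knockout and 219, 84.7 and 447 CPM in the wild-type libraries. In both lists 0 markers were at a count of 0. Neutrophil markers summed to 14.3, 17.7 and 38.5 CPM in the knockout and 7.70, 33.2 and 39.7 CPM in the wild-type libraries, with S100a8 at 0 in wild-type replicate 1. B and plasma cell markers summed to between 255 and 751 CPM in knockout and between 918 and 1389 CPM in wild-type libraries, with Pax5 at 0 in some libraries of both groups. Most of this sum was the plasma cell gene Jchain, with 245 CPM in knockout replicate 1 and 1343 CPM in wild-type replicate 2. It thus says little of B cells. The mitochondrial share of counts was 2.89%, 4.18% and 2.31% in the knockout and 2.98%, 4.005% and 3.08% in the wild-type libraries, highest in knockout replicate 2 and lowest in knockout replicate 3. The part of these values in the immediate early levels was not tested.

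All genes of at least 10 CPM except the members, those of the lists included, were compared with the members' score over the 6 libraries. The most alike were Zbtb38, Sp5, Ppm1f, C9orf72, Fam222b, Myo10, Bmp1, Fam168a, Inf2 and Ift122. Likeness was the root mean square difference in centred log2 CPM, which ran from 0.0671 to 0.106 for these 10 and had a median of 0.364 over the 10029 genes of at least 10 CPM. The 8 members of at least 10 CPM lay between 0.118 (Atf3) and 0.415 (Fos) from their own score, with Nr4a1 at 0.363, so the score is an average that not every member follows closely. Sp5, a zinc finger gene induced by Wnt signaling, had 87.2, 47.8 and 106 CPM in the knockout and 70.3, 63.1 and 74.5 CPM in the wild-type libraries. Zbtb38, a zinc finger gene that binds methylated DNA, had 88.9, 56.4 and 118 CPM in the knockout and 81.7, 62.3 and 84.0 CPM in the wild-type libraries. None of the 10 nearest genes belonged to a pathway or marker list.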

How the data were processed

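The authors deposited 1 table per library with whole-number counts per Ensembl gene. TopHat2 2.1.0, HTSeq 0.6.1 and build mm10 appear among the tools of the submitters' processing notes; strand setting and annotation release were not known here. The length column the authors deposited is the genomic span, so exon lengths came from GENCODE M21, within those bounds. Symbols were found for 45143 of 46078 identifiers, and Cyr61, Ctgf, Mkl1 and Mkl2 were matched by newer symbols. Sample titles gave the groups. Chi-square per degree of freedom was 47.0 to 263 over the 15 pairs of libraries, so none was treated as a duplicate.

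Genes were filtered with filterByExpr and scaled by TMM (factors 0.914 to 1.09). The genotype test was the robust quasi-likelihood F-test of edgeR 4.0.16 (R 4.3.3), with Benjamini-Hochberg adjustment over all 17254 genes and a threshold of 0.05. SE was the log2 fold change over the square root of F. Log2 CPM used a prior count of 2. The fit was first tested on simulated data, in which each gene had the spread typical of its level. It recovered 45 of 100 genes changed 2-fold and 91 of 100 changed 4-fold, with 10 false calls. The estimated spread of 7 of the 10 members was above that typical value. A 2-fold change of a member could thus be missed. Alternatives included DESeq2 1.42.0 and limma 3.58.1 (voom). Members, lists and the naming rule were chosen with earlier results of these data known. The rule names all members, up to 4 genes of smallest p per list, and the 10 nearest profiles among genes of at least 10 CPM; Egr4 was named after its counts were seen.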

Additional observations from a re-analysis of the deposited data

How the results depend on the processing

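In each alternative run, 0 immediate early genes and 0 genes of the 7 pathway lists passed, and the members' lowest adjusted p stayed above 0.1. Over all genes 16 passed, against 110 with DESeq2. Leaving out 1 mouse gave 9 to 41 genes, with 9 lacking knockout replicate 1, 10 lacking knockout replicate 3, 41 lacking knockout replicate 2 and 29 lacking wild-type replicate 3. The members' median log2 fold change was then between -0.045 and 0.46. Library size in place of TMM moved the median of all genes to 0.077 and that of the members to 0.36. It moved Junb to 0.063, a change of sign. TMM factors, which this setting leaves out, were 1.08, 0.914 and 1.09 in the knockout and 1.03, 0.950 and 0.956 in the wild-type libraries. What made these factors differ was not tested. With 1 mouse left out, Jun ranged from -0.35 to 0.028, Junb from -0.072 to 0.064, Egr1 from -0.019 to 0.80 and Atf3 from -0.075 to 0.47, and the other 6 kept their sign, with ranges from -0.52 to -0.096 for Fos, 0.062 to 0.88 for Fosb, 0.22 to 0.76 for Egr2, -0.20 to -0.0019 for Ier2, 0.039 to 1.01 for Nr4a1 and 0.11 to 0.67 for Dusp1. Fos (without wild-type replicate 1) and Dusp1 (without wild-type replicate 3) then had unadjusted p-values of 0.0350 and 0.0319 but adjusted p-values of 0.734 and 0.829 (edgeR). Egr2 was not tested under a filter of 1 CPM in 3 libraries. A sex term, added after seeing the data, left 11 genes and 0 members. Same-numbered knockout and wild-type mice correlated in their deviations at 0.22, 0.27 and 0.08. The values for replicates 1 and 2 were the highest of all pairings between the groups. Knockout replicate 3 correlated more with wild-type replicate 1 (0.18). Whether the numbers mark pairs is not known here, and the main test did not pair the mice. With a replicate block 14 genes and 0 members passed, and the members' median was 0.24. Egr2 had the lowest depth, with as few as 22 counts in a library.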
